A study of Mus musculus with 2 samples.

Results

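Among mouse embryonic stem cells transfected with control or Son siRNA, the cells described here were those with the highest joint level of 8 genes that are linked to the p53 response. Members were chosen by a score, the summed UMIs of P2rx7, Mdm2, Rab23, Cyyr1, Trp53inp1, Apaf1, Polk and Rbl2 per 10000 UMIs of the cell, and the top 10% of all kept cells were taken. A UMI (unique molecular identifier) marks 1 captured transcript molecule. The choice gave 771 of 7709 kept cells. Of these, 509 came from the library named control and 262 from the library named sonKD.

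Both groups were E14 cells, an embryonic stem cell line of 129/Ola background, and no further allele is given for either group. They were grown on gelatin with fetal bovine serum and leukaemia inhibitory factor and transfected with Lipofectamine2000, the control group with a control siRNA and the sonKD group with siRNA against Son. Son encodes an RNA-binding protein of nuclear speckles that takes part in splicing. All cells were detached 24 h after transfection, frozen, thawed, sorted by exclusion of the dead-cell dye 7-AAD and barcoded with 10x Genomics 3' chemistry, as 1 library per group. With 1 library per group, library and knockdown cannot be told apart, no test between groups was made, and every interval given is a 95% interval of counting error only.

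The transcription factor p53 is held at a low level by the ubiquitin ligase Mdm2 and its partner Mdm4, and it is released from them when DNA is damaged or ribosome production is disturbed. It then switches on genes that halt the cell cycle, repair DNA or start apoptosis, and Mdm2 itself, which closes a feedback loop. Embryonic stem cells have a very short G1 phase and a high load of replication stress, and p53 in these cells is also known to act on pluripotency genes such as Nanog. The score genes fall into several of these roles. Mdm2 is the feedback gene, Trp53inp1 a p53-induced nuclear protein, Apaf1 the scaffold of the apoptosome, Rbl2 the RB family protein p130, and Polk a DNA polymerase that copies past damaged bases. P2rx7 is an ATP-gated ion channel, Rab23 a small GTPase of hedgehog signalling, and Cyyr1 a small membrane protein.

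The promoters of 3 genes are printed because p53 binds DNA through a 10-base motif, and these windows of well-known p53 targets hold a match to it. Each window of 300 bases runs from 250 before to 50 after an annotated start, is read 5′ to 3′ on the gene's strand and comes from RefSeq on GRCm38.p6. Capitals mark the p53 half-site, a motif that reads the same on both strands; no other motif was searched. The windows are chr17:29090729-29091028 on the plus strand, chr10:117710709-117711008 on the minus strand and chr11:40755237-40755536 on the minus strand.
Cdkn1a: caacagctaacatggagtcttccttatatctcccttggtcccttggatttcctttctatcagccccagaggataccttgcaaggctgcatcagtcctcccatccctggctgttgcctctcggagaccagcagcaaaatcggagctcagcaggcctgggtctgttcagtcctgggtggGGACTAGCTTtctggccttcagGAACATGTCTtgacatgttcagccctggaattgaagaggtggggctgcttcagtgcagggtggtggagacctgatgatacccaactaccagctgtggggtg
Mdm2: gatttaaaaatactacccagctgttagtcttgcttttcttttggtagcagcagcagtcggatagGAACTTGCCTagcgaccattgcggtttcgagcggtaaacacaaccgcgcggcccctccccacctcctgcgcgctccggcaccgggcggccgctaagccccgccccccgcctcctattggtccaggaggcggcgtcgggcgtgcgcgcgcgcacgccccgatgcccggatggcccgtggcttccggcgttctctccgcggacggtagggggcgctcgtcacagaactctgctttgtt
Ccng1: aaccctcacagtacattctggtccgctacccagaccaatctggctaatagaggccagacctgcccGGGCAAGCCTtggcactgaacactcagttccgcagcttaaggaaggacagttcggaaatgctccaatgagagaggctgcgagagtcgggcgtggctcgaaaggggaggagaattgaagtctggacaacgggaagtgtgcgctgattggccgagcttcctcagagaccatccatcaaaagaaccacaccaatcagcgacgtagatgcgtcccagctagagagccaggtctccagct
The Cdkn1a window held a pair of half-sites 12 bases apart, starting at base 178, whereas the Mdm2 and Ccng1 windows held 1 each. A half-site was found in 8.36% of all 32851 windows, and a full element, 2 half-sites at most 13 bases apart, in 24 windows. Of the 10 windows of the 7 score genes found in the table, 2 held a half-site (Mdm2 and Polk). Of 40 other p53 targets listed for this description, 33 were found, and 10 of their 46 windows held one (21.7%). Of the 456 genes that were higher in members, defined below, 381 were found, and 41 of their 498 windows held one (8.23%). Among all genes compared, from which these come, the share was 6.55% of 6077 windows. A match describes letters in this window only.

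Cells were kept at 2500 or more UMIs, 1000 or more genes and at most 10% mitochondrial UMIs, which left 4978 control cells (median 7737.5 UMIs) and 2731 sonKD cells (median 11612 UMIs). A further 625 control and 1056 sonKD barcodes passed the minimums but exceeded the mitochondrial limit. Only 2 barcode sequences occurred among the kept cells of both libraries. Son itself was at 104 CPM (UMI counts scaled to a common total) in the other sonKD cells and at 167 CPM in the other control cells. Doublets were not removed.

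Members made up 10.2% of kept control cells (exact binomial interval 9.40 to 11.1) and 9.59% of kept sonKD cells (8.51 to 10.8), so the intervals of the libraries overlapped. The score had no gap at the threshold. The lowest member scored 8.38 and the highest other cell 8.37. The 10 members just inside scored 8.38 to 8.46 with 3 to 12 UMIs of the score genes, and the 10 cells just outside scored 8.21 to 8.37 with 4 to 19. At so few UMIs per cell, counting noise would blur a gap between classes if there were one. The median member score was 14.3 in both libraries, and the highest scores were 177 in control and 201 in sonKD. Among the other cells, 29.9% in control and 19.9% in sonKD had a score of 0.

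**Figure D1:**
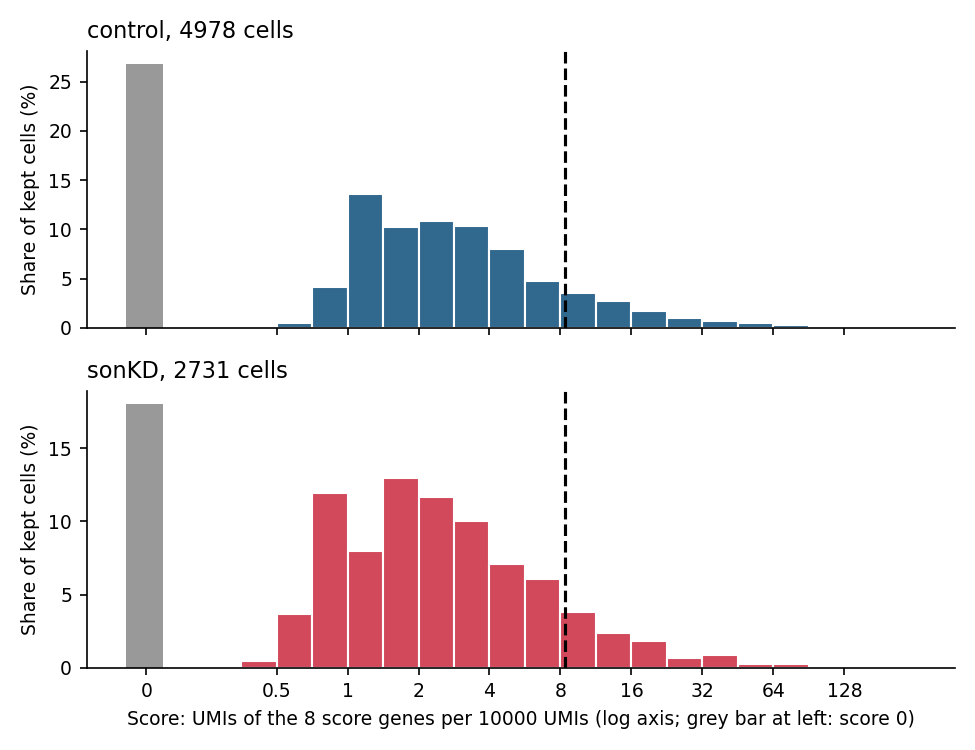
Share of kept cells (%) by score on a log axis for each library, with cells of score 0 as a grey bar and the member threshold as a dashed line. The score falls off without a gap at the threshold of 8.38 in both libraries.

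Members had fewer UMIs than the other cells of their library. The median was 5887 against 7876 UMIs in control and 7976 against 11813 in sonKD. The share of mitochondrial UMIs was 5.40% in members and 3.69% in other cells of control, and 5.87% and 4.07% in sonKD. Genes spanning at least 100 kb gave 9.16% of member UMIs against 7.22% in control and 8.20% against 6.54% in sonKD. Ribosomal protein genes gave nearly equal shares, 20.6% and 20.8% in control and 24.0% and 24.1% in sonKD. With other cells weighted to the long-gene share of members, 272 genes were higher in members in place of the 456 given below, and 14 of 22 p53 targets in both cases. For depth and mitochondrial share, values within ranges of each are given beside the main lists.

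Membership depended on the depth of the cell. In control, 33.7% of cells with 2500 to 5000 UMIs were members, 8.14% of those with 5000 to 10000, 5.53% of those with 10000 to 20000, and 1 of 49 deeper cells. In sonKD the shares were 32.0%, 18.2%, 4.35% and 6.14%. The excess among shallow cells was also present when every cell was thinned to 2500 UMIs and cells with at least 3 UMIs of the score genes were taken, at 29.4% and 28.5% of the cells under 5000 UMIs. After thinning, the overall shares were 9.34% in control and 10.1% in sonKD, the reverse of the order without thinning.

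**Figure D2:**
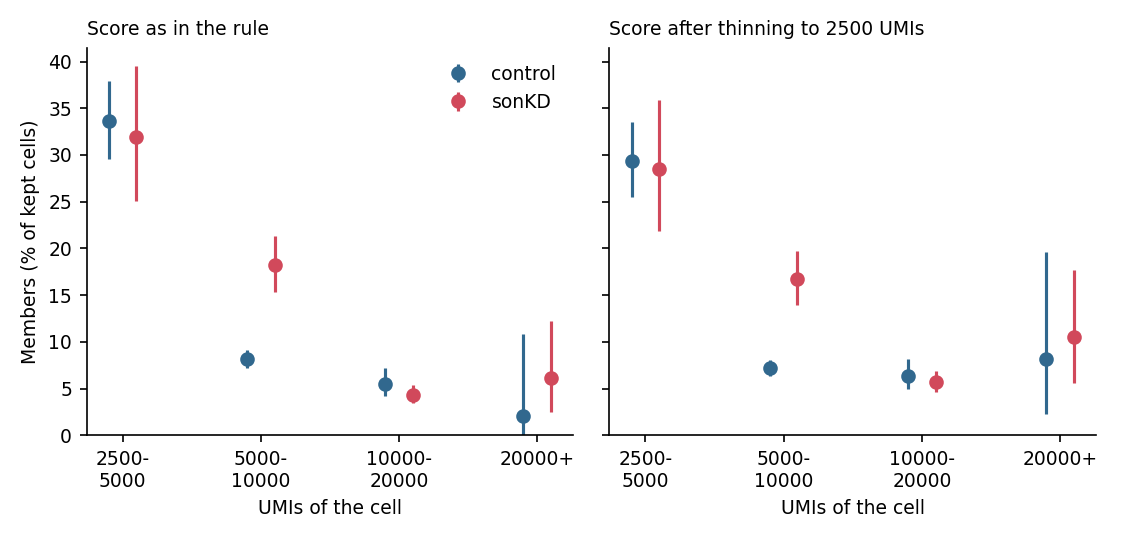
Share of kept cells (%) that were members, by UMIs of the cell, with the score as defined (left) and after thinning each cell to 2500 UMIs (right); bars are exact binomial 95% intervals. In both panels the share is highest under 5000 UMIs, 33.7% in control and 32.0% in sonKD without thinning.

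Since the score chose the members, the levels of its 8 genes are given as a description. Mdm2 (chr10:117688875-117710758, minus strand, GRCm38) carried the score, with 47.3% of all score-gene UMIs of control members and 44.4% of those of sonKD members. It stood at 916 CPM in control members and 72.8 CPM in other control cells, and at 781 and 78.1 CPM in sonKD. At least 1 Mdm2 UMI was found in 96.7% of control members and in all 262 sonKD members, against 40.8% and 48.6% of the other cells. Droplets of 100 to 500 UMIs, which hold mostly free RNA, showed 75.3 CPM in control and 73.6 CPM in sonKD. In CPM the other cells were thus about level with the droplets, while the members lay far above them. CPM is a share of UMIs, so this does not tell whether the Mdm2 UMIs of other cells came from free RNA.

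P2rx7 (chr5:122643911-122691432) had the largest ratio. It stood at 106 CPM in control members and 2.92 CPM in other control cells, and at 118 and 4.33 CPM in sonKD, with 4.41 and 4.18 CPM in droplets. Few cells carried it. A P2rx7 UMI was found in 19.3% of control and 31.7% of sonKD members, and the 5 members with most P2rx7 UMIs held 34.3% and 38.7% of them. Cyyr1 (chr16:85421533-85553397) was similar in kind, at 83.6 against 2.82 CPM in control and 84.0 against 3.59 CPM in sonKD, and was found in 26.9% and 34.0% of members.

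The remaining score genes were more widely spread over the members. Trp53inp1 (chr4:11156431-11174379) stood at 231 against 26.9 CPM in control and 249 against 29.0 CPM in sonKD, with a UMI in 69.7% and 77.9% of members. Rab23 (chr1:33719887-33742564) stood at 207 against 32.5 CPM in control and 196 against 32.3 CPM in sonKD. The damage-tolerance polymerase gene Polk (chr13:96480690-96542579) stood at 149 against 21.5 CPM and at 148 against 24.2 CPM. For the apoptosome gene Apaf1 (chr10:90989311-91082770), levels were 138 against 15.7 CPM in control and 115 against 15.2 CPM in sonKD. Rbl2 (chr8:91070057-91123844) stood at 106 against 12.8 CPM in control and 69.0 against 12.0 CPM in sonKD. In droplets these 5 genes stood at 3.27 to 24.1 CPM. For every one of the 8 genes the members' interval lay above that of the other cells in both libraries, as the choice of cells requires.

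**Figure D3:**
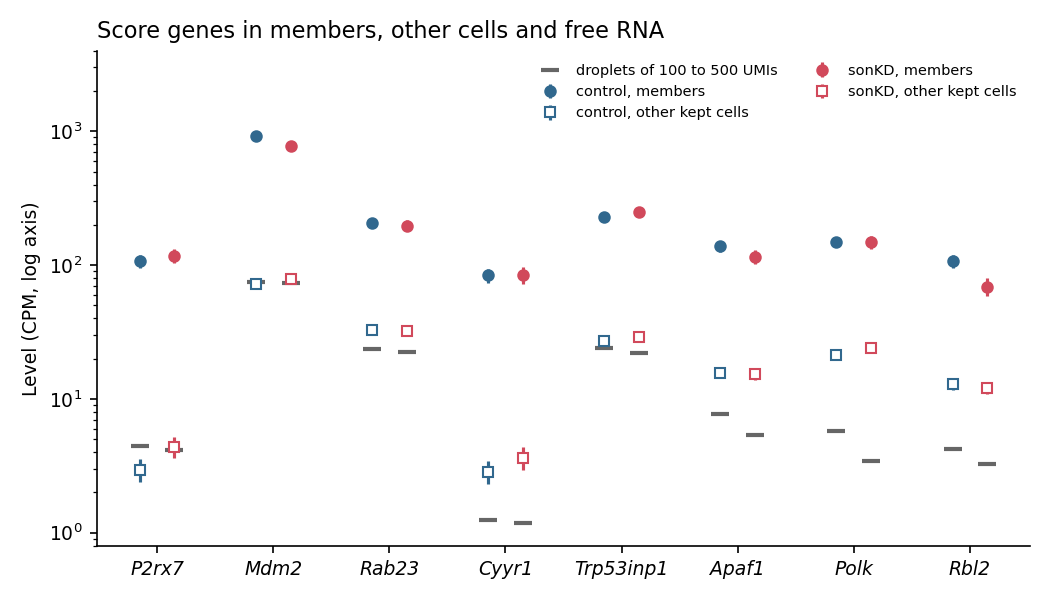
Level of each score gene (CPM, log axis) in members (filled) and other kept cells (open) of each library, with exact Poisson 95% intervals, and in droplets of 100 to 500 UMIs (grey dashes). Mdm2 is the most abundant, at 916 and 781 CPM in members, and in other cells it lies beside the free RNA level.

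Several score genes were usually detected in a member, which follows in part from its larger number of score-gene UMIs (median 10 in control and 12 in sonKD, against 1 and 2 in other cells). The median control member carried UMIs of 4 of the 8 genes and the median sonKD member 5, against 1 in other cells of both libraries. At least 5 of the genes were detected in 40.9% of control and 53.4% of sonKD members, and in 0.783% and 2.67% of other cells. All 8 were detected in 15 control and 8 sonKD members. A single gene made the score in 17 control and 2 sonKD members.

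Whether each gene also marked the cells chosen by the others was read by scoring cells on the other 7 genes and again taking the top 10%. The left-out gene was higher in those cells for all 8 genes in both libraries. For Mdm2 the log2 ratio was 2.87 in control (2.79 to 2.94) and 2.63 in sonKD (2.53 to 2.72). It was 4.85 and 4.36 for P2rx7 and 4.32 and 3.72 for Cyyr1. The lowest values were 2.48 for Rab23 in control and 2.28 for Rbl2 in sonKD. Without Mdm2 in the score, 571 of the 771 members remained, and without any other single gene 698 (Trp53inp1) to 752 (P2rx7) remained. A second copy of the measurement came from choosing cells on one random part of the UMIs of each cell and measuring in the remaining part. There the log2 ratio of Mdm2 was 3.22 in control and 2.97 in sonKD, and that of Polk, the lowest in control, was 2.23 in control and 2.24 in sonKD. The lowest in sonKD was that of Rbl2, at 2.17. The 8 genes were chosen with earlier results of these same data known. High ratios in both readings therefore follow at least in part from that choice and are a description only.

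Beyond the score genes, 5996 genes of at least 20 CPM were compared between members and other cells. A gene was called when its ratio passed 1.5-fold (0.58 on the log2 scale) in the same direction in both libraries. This held for 456 higher genes, 7.61% of those compared, and for 161 lower genes, 2.69%. The median log2 ratio of all genes was -0.06 in both libraries, and 5129 genes had the same sign in both. The libraries were scored by the same genes, so this is no independent repeat. Higher genes were long, with a median span of 64.5 kb against 27.2 kb for all and 9.34 kb for lower genes. They were spread over all chromosomes compared, from 4.12% of the genes of chromosome 18 to 10.2% of those of chromosome 2. Counts of called genes were smaller with the mitochondrial share limited or matched. Among cells of at most 5% mitochondrial UMIs, 150 genes were higher and 13 lower (2.53% and 0.22% of 5933). With other cells weighted to the members' mitochondrial share, 259 were higher and 51 lower (4.32% and 0.85%).

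The other known p53 targets stood out by their count. Of 40 listed targets outside the score, 22 passed the level filter, and 14 of the 22 were higher and none lower, against the 7.61% and 2.69% of all genes. Their median log2 ratio was 1.00 in control and 1.01 in sonKD. Summed over the 40 genes, the level was 3820 CPM in members (3754 to 3887) and 2289 in other cells (2274 to 2305) of control, and 4140 against 2463 CPM in sonKD. The filter was set on the mean over all kept cells, members included, so a gene could pass it through the members alone. Ddit4l and Eda2r did so, with under 20 CPM in the other cells of both libraries. With the filter set on other cells alone, 12 of 19 targets were higher, against 417 of 5955 genes (7.00%). Among cells of at most 5% mitochondrial UMIs, 10 of 19 targets were higher, against 2.53% of all genes. With other cells weighted to the members' mitochondrial share, 12 of 22 were higher, against 4.32% of all genes.

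Within depth ranges the summed targets were higher in members as well. In cells of 2500 to 5000 UMIs they stood at 4730 against 2635 CPM in control and at 5154 against 2432 CPM in sonKD. In cells of at least 10000 UMIs they stood at 3233 against 2166 CPM in control and at 3705 against 2403 CPM in sonKD. Within ranges of mitochondrial share the log2 ratio of the sum lay between 0.57 and 0.72, next to 0.74 and 0.75 over all cells. These ranges are wide and take 1 measure at a time, so members and others within a range may still differ in it.

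Cdkn1a, which encodes the cyclin-dependent kinase inhibitor p21, stood at 118 CPM in control members and 45.0 CPM in other control cells, and at 120 and 43.3 CPM in sonKD (log2 1.39 and 1.48). Its printed window holds the only full p53 element among the windows of the listed targets. Btg2, an antiproliferative gene, stood at 105 against 20.6 CPM in control and 151 against 24.0 CPM in sonKD (log2 2.36 and 2.66). Tob1, of the same antiproliferative family, had log2 ratios of 0.58 and 0.55 and did not pass the fold. Ccng1, which encodes cyclin G1, a partner in p53 feedback, stood at 247 against 78.1 CPM and at 252 against 85.0 CPM (log2 1.66 and 1.57).

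Feedback regulators outside the score were called too. Ppm1d, which encodes the phosphatase Wip1 that switches off the damage response, stood at 97.3 against 39.6 CPM in control and 70.3 against 40.6 CPM in sonKD. Mdm4, the partner of Mdm2, stood at 409 against 117 CPM in control and at 412 against 121 CPM in sonKD (log2 1.81 and 1.77). Rchy1, a ubiquitin ligase of p53, was higher by 1.19 and 1.18 on the log2 scale. These last were 2 of 15 genes compared from a list of 19 p53 regulators, of which none was lower, against 7.61% and 2.69% of all genes, and the list's medians were 0.11 and 0.14.

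Trp53, which encodes p53 itself, did not share in this. It stood at 308 CPM in control members and 307 CPM in other control cells, and at 306 and 330 CPM in sonKD (log2 0.01 and -0.11). Transcript levels say nothing of p53 protein. Below the filter and named after its values were seen, Trp73 of the p53 regulator list stood at 13.1 against 0.61 CPM in control. In sonKD it stood at 11.5 against 0.81 CPM, and the member values rest on 43 and 26 UMIs. Hipk2 of that list, also below the filter, had log2 ratios of -0.44 and -0.49, and Trp63 had no UMI in members. The kinase genes Atm and Atr, which signal DNA damage, had log2 ratios of -0.05 and -0.03 in control and 0.14 and -0.12 in sonKD, and neither passed the fold.

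Targets tied to cell death were uneven. Perp, a p53 effector of the plasma membrane, stood at 132 against 27.6 CPM in control and 188 against 39.2 CPM in sonKD (log2 2.26 in both). Phlda3, an inhibitor of Akt, stood at 375 against 95.3 CPM and at 391 against 88.5 CPM (log2 1.97 and 2.14). The death receptor gene Eda2r was higher by 2.13 and 2.05. Bax, which opens the mitochondrial outer membrane, stood at 514 against 559 CPM in control and 458 against 492 CPM in sonKD and did not pass the fold.

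Among 10 compared genes of the apoptosome and BCL2 family, none was higher and none lower, against 7.61% and 2.69% of all genes. A count this small says little about the family, and its medians were -0.20 and -0.14. The farthest were Htra2, a mitochondrial protease (log2 -0.57 and -0.82), and Bcl2l1, which encodes the survival protein BCL-XL (0.43 and 0.59). Some death genes lay below the level filter, in both directions, and are named after their values were seen. Bbc3, which encodes Puma, stood at 39.2 against 14.7 CPM in control and 45.6 against 16.8 CPM in sonKD. Pmaip1, which encodes Noxa, stood at 11.9 against 2.63 CPM and 11.1 against 3.29 CPM. For the death receptor gene Fas, levels were 6.69 against 0.35 CPM in control and 7.08 against 0.37 CPM in sonKD. Bok, of the BCL2 family, was lower, at 6.08 against 13.6 CPM in control and 4.42 against 12.7 CPM in sonKD.

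Of the repair and stress targets, Ercc5, an endonuclease of nucleotide excision repair, stood at 115 against 38.5 CPM in control and 116 against 43.2 CPM in sonKD. Xpc, which finds damage in the same pathway, was at 23.1 against 23.7 CPM and at 23.0 against 24.6 CPM. Ddit4l, a regulator of mTOR signalling, stood at 95.5 against 13.1 CPM in control and 146 against 17.2 CPM in sonKD, the farthest of the 22 targets past the filter (log2 2.86 and 3.08). The other called targets were Zmat3, Sesn2, Ei24, Fbxw7 and Psrc1, with log2 ratios of 0.72 to 1.57 in control and 0.87 to 1.55 in sonKD. Beside Bax and Xpc, Rps27l, Tigar, Triap1, Aen, Sesn1 and Tob1 did not pass in both libraries, and Tigar, a regulator of sugar breakdown, was the lowest at -0.40 and -0.67.

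**Figure D4:**
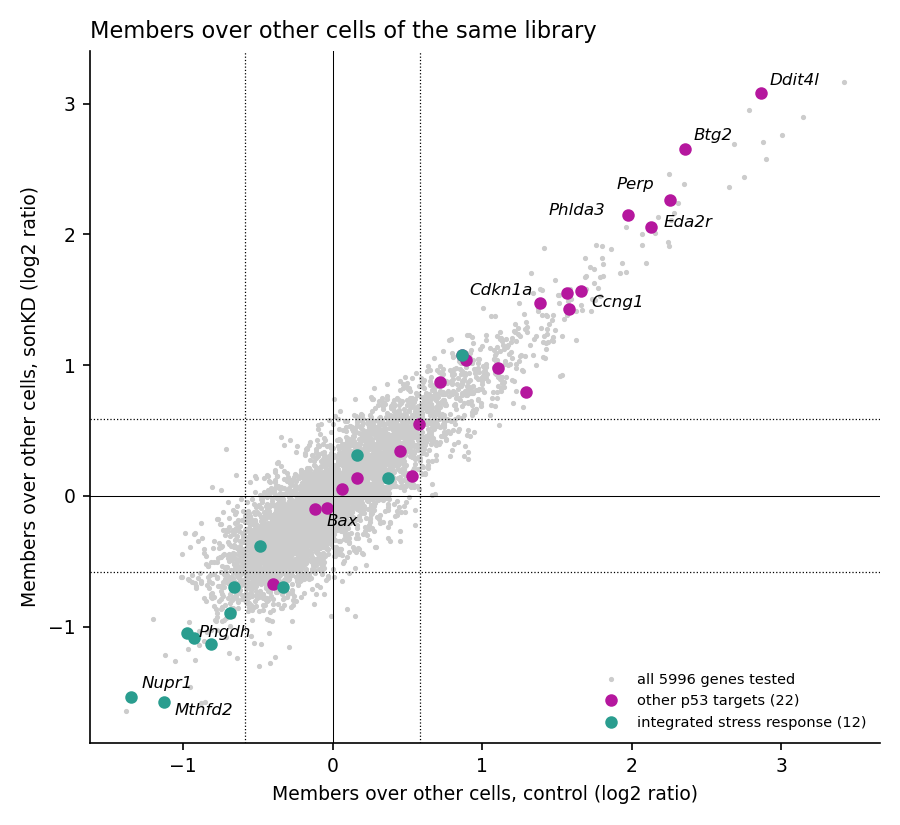
Log2 ratio of members over other cells in control (horizontal) and sonKD (vertical) for all 5996 genes, with other p53 targets (purple) and integrated stress response genes (green) marked; dotted lines are 1.5-fold. Of the p53 targets 14 of 22 lie past the fold on the upper right, and 7 of 12 stress genes lie past it on the lower left.

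Relatives of the score genes moved unevenly. Among 12 compared RB and E2F genes, Rb1, which encodes the retinoblastoma protein, stood at 138 against 20.5 CPM in control and 128 against 23.7 CPM in sonKD. Lin52, a subunit of the complex that RB relatives join, was also higher (log2 0.91 and 0.94). E2f4, Lin37 and Ccne1 were lower, and Rbl1 was at 0.04 and -0.13. Thus 2 of the 12 were higher and 3 lower, against 7.61% and 2.69% of all genes. Among 12 compared genes of DNA damage tolerance, Rev1, a polymerase scaffold, stood at 192 against 50.5 CPM and 166 against 50.9 CPM, and Mad2l2, a subunit of another such polymerase, was lower by -0.63 and -0.60. These were the only ones called of the 12 damage tolerance genes, 1 in each direction, against the same shares of all genes. The median of these 12 was -0.08 in control and -0.07 in sonKD, so this family as a whole did not stand above all genes.

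The 10 genes with the highest mean log2 ratio were Ano3, Ptpn14, Ddit4l, Plxdc2, Tmtc3, Klhl26, Arap2, Prrg4, Rb1 and Map3k20. Ano3, which encodes a protein of the anoctamin family, led with 258 against 24.1 CPM in control and 261 against 29.1 CPM in sonKD (log2 3.42 and 3.16). It had a UMI in 54.8% of control and 64.5% of sonKD members. Ptpn14, a tyrosine phosphatase that acts on YAP signalling, stood at 178 against 20.1 CPM and 163 against 21.9 CPM. Map3k20, the kinase ZAK that senses stalled ribosomes, stood at 157 against 25.0 CPM in control and 133 against 25.9 CPM in sonKD. Ddit4l, Plxdc2, Tmtc3, Klhl26, Arap2 and Prrg4 had under 20 CPM in other cells of both libraries and passed the level filter only through the members, where they were high. In all 10 the 5 members with most UMIs held under 20% of them, 6.17% to 11.8% in control and 10.3% to 18.7% in sonKD.

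The 10 with the lowest mean log2 ratio were Fgf17, Nupr1, Mthfd2, Slc16a3, Pck2, Tcl1, Ydjc, Ppp1r1a, Krt17 and Gpt2. The growth factor gene Fgf17 stood at 21.3 against 55.4 CPM in control and 19.5 against 61.0 CPM in sonKD. Mthfd2, a mitochondrial folate enzyme, stood at 62.6 against 137 CPM in control and 39.4 against 118 CPM in sonKD. Pck2, mitochondrial phosphoenolpyruvate carboxykinase, stood at 20.7 against 37.3 CPM and 7.96 against 23.8 CPM, and in sonKD members this rests on 18 UMIs.

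Genes of the integrated stress response, in which the factor Atf4 switches on amino acid synthesis genes, were mostly lower in members. Of 12 compared genes 7 were lower (Atf4, Asns, Psat1, Phgdh, Shmt2, Mthfd2 and Nupr1), against 2.69% of all genes, and 1 was higher, Sesn2, which is also on the p53 list. The count was 4 of 12 with the top 20% of cells as members, 3 of 12 among cells of at most 5% mitochondrial UMIs, and 4 of 12 with other cells weighted to the mitochondrial share of members. The medians were -0.68 in control and -0.80 in sonKD. Phgdh, the entry enzyme of serine synthesis, stood at 112 against 221 CPM in control and 107 against 220 CPM in sonKD. Asns, asparagine synthetase, stood at 239 against 386 CPM and 221 against 411 CPM. Trib3 and Ppp1r15a were not called and lay somewhat higher in members. Trib3 stood at 35.0 against 31.2 CPM in control and 33.6 against 27.1 CPM in sonKD. Ppp1r15a stood at 41.0 against 31.8 CPM in control and 35.8 against 32.5 CPM in sonKD. Summed over 19 genes, the level was 1052 against 1573 CPM in control and 962 against 1513 CPM in sonKD.

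This sum varied with the mitochondrial share of the cells too. In other control cells it was 1782 CPM at under 3% mitochondrial UMIs and 1244 CPM at 5% to 10%. Within such ranges the members remained lower, with log2 ratios of -0.73 to -0.32 in control and -1.05 to -0.40 in sonKD. The smallest difference by depth was -0.18, in sonKD cells of 2500 to 5000 UMIs, where the intervals of members (935 to 1213 CPM) and others (1106 to 1323 CPM) overlapped. Atf3, a stress factor, and Ddit4, an mTOR regulator, lay below the filter and went the other way (named after their values were seen). They stood at 19.8 against 3.80 CPM and 39.2 against 15.2 CPM in control, and at 29.6 against 3.26 CPM and 54.4 against 16.2 CPM in sonKD. Ddit3, also below the filter, was higher too, at 22.2 against 18.1 CPM in control and 30.5 against 19.5 CPM in sonKD. Chac1 and Atf5, below it as well, were lower. Chac1 stood at 4.26 against 18.3 CPM and 1.33 against 13.7 CPM, and Atf5 at 6.08 against 14.7 CPM and 7.52 against 15.0 CPM.

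The members carried the defining transcripts of embryonic stem cells. Pou5f1, which encodes Oct4, stood at 1031 CPM in control members and 1111 CPM in other control cells, and at 828 and 923 CPM in sonKD, and 98.2% and 96.2% of members had a UMI of it. Sox2 stood at 339 against 353 CPM and 313 against 338 CPM. Nanog stood at 132 against 173 CPM in control and 120 against 155 CPM in sonKD (log2 -0.39 and -0.37). None of these 3 passed the fold. Their levels in droplets were not read, so part of their UMIs may be free RNA. Of 19 compared naive pluripotency genes, none was higher and 2 were lower, against 7.61% and 2.69% of all genes. The lower ones were Tcl1, a co-activator of Akt (log2 -0.95 and -1.47), and Tdgf1, a co-receptor for Nodal (-0.62 and -0.64), with medians of -0.21 and -0.15. Of 6 compared formative and primed pluripotency genes none was higher and 1 was lower, Dnmt3a (log2 -0.63 and -0.82). The medians of that list were -0.25 and -0.20. Its sum was 617 against 819 CPM in control and 615 against 776 CPM in sonKD.

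Markers of other cell types were mostly at low levels, so few were compared. Beside their counts, 7.61% of all genes were higher and 2.69% lower. Of 11 fibroblast genes none passed the filter, 6 had no UMI in members (Col1a2, Col3a1, Dcn, Lum, Postn and Acta2), and the sum was 10.3 against 6.81 CPM in control and 5.31 against 7.19 CPM in sonKD. Of 11 listed transcripts of the 2-cell-like state 10 had no UMI in members, and 1 UMI was found in all. Of 15 primitive endoderm genes 3 were compared and none was called, with a sum of 572 against 411 CPM in control and 509 against 395 CPM in sonKD, in which Sparc was the most abundant. Below the filter, Gata4 and Gata6, transcription factors of that lineage, were at higher levels in members (named after their values were seen). Gata4 stood at 9.12 against 2.26 CPM in control and 7.08 against 1.98 CPM in sonKD, and Gata6 at 2.74 against 0.53 CPM and 3.98 against 0.27 CPM, each Gata6 member value from 9 UMIs. The basement membrane gene Col4a1 stood at 41.4 against 11.2 CPM and 21.2 against 9.94 CPM. Lama1 and Dab2 of this list did not go the same way in both libraries. Lama1, which passed the filter, stood at 41.4 against 37.2 CPM in control and 16.4 against 31.0 CPM in sonKD. In control members 1 cell held 37.5% of the Lama1 UMIs. Dab2, below the filter, stood at 7.30 against 1.49 CPM in control and 0.44 against 1.75 CPM in sonKD. Sox7, Pdgfra and Foxa2 had no UMI in sonKD members. Of 10 neuroectoderm genes 2 were compared and Tubb3 was lower (log2 -0.96 and -1.05). Their sum was 85.7 against 131 CPM in control and 71.7 against 111 CPM in sonKD, and Pax6, Neurog2, Zic1 and Dcx had no UMI in members. Nodal, a signalling ligand of the early embryo and the only compared gene of 11 mesoderm and streak genes, stood at 67.5 against 31.8 CPM and 61.9 against 23.8 CPM, while T, Fgf8 and Evx1 had no UMI in members. Below the filter and named after their values were seen, the ligand gene Wnt3 stood at 3.65 against 0.16 CPM in control and 4.42 against 0.27 CPM in sonKD, and the homeobox gene Lhx1 at 3.34 against 0.11 CPM and 3.10 against 0.07 CPM. The member values rest on 12 and 10 UMIs of Wnt3 and on 11 and 7 UMIs of Lhx1. The summed mesoderm and streak list stood at 80.0 against 37.3 CPM in control and 73.9 against 29.2 CPM in sonKD, and its part and that of the other lineage lists in the results was not tested.

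The trophectoderm keratins rested on few cells. Of 11 genes of that list, Krt8 and Krt18 were compared, Elf5 had no UMI in members, and the sum was 102 against 67.6 CPM in control and 175 against 85.7 CPM in sonKD. Krt18 stood at 36.2 against 18.9 CPM in control and 69.9 against 31.2 CPM in sonKD, and passed the fold in both. In sonKD members 5 cells held 76.6% of the Krt18 and 69.1% of the Krt8 UMIs. With the top 5% of cells in place of the top 10%, the sonKD log2 ratio of Krt18 was -0.25 in place of 1.16.

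The S phase and G2/M lists had medians below that of all genes, -0.06, and few of their members were called. Of 40 compared S phase genes none was higher and 1 was lower, Gmnn, which encodes geminin, a brake on replication licensing (log2 -0.73 and -0.70). The medians were -0.31 and -0.33, and the summed level was 5180 against 6284 CPM in control and 4598 against 5812 CPM in sonKD. Of 49 compared G2/M genes 2 were higher and 1 lower, near or below the 7.61% and 2.69% of all genes, with medians of -0.29 and -0.42. The lower gene was Birc5, which encodes survivin (log2 -0.70 and -0.78). The higher genes were Ckap2, a spindle protein (log2 1.12 and 1.11), and Psrc1, which is also on the p53 list. No phases were assigned to cells.

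Among nuclear long noncoding RNAs, Neat1, the scaffold of paraspeckles, stood at 161 against 80.7 CPM in control and 388 against 211 CPM in sonKD (log2 1.00 and 0.88), the only one called of 8. Malat1, an RNA of nuclear speckles, had log2 ratios of 0.44 and 0.46. With other cells weighted to the members' share of long-gene UMIs, the Malat1 ratios were -0.07 and -0.10, and 14 of 22 p53 targets were still higher. Son stood at 188 against 167 CPM in control and 133 against 104 CPM in sonKD. Of 4 compared interferon genes none was called, and of 9 immediate early and heat shock genes only the chaperone gene Dnajb1 was (log2 0.63 and 0.72). Among all genes 7.61% were higher and 2.69% lower, and counts this small say little about these 3 lists.

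From a score of 1 upward the other p53 targets rose from range to range in both libraries. The stress response list fell up to the range just above the threshold and changed little beyond it. The 40 other p53 targets stood at 2091 CPM in control cells and 2209 CPM in sonKD cells of score 0. In cells above 0 and below 1 they stood at 2029 and 2169 CPM. They reached 2875 and 3186 CPM between a score of 4 and the threshold, and 5574 and 5759 CPM at scores of 30 or more. Phlda3 went from 65.2 to 970 CPM in control and from 59.3 to 902 CPM in sonKD between the same ends. The stress response list went from 1695 CPM to 1065 CPM just above the threshold in control, and from 1725 to 939 CPM in sonKD, with 1000 and 959 CPM in the highest range. The increase of the p53 targets therefore began below the member threshold.

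**Figure D5:**
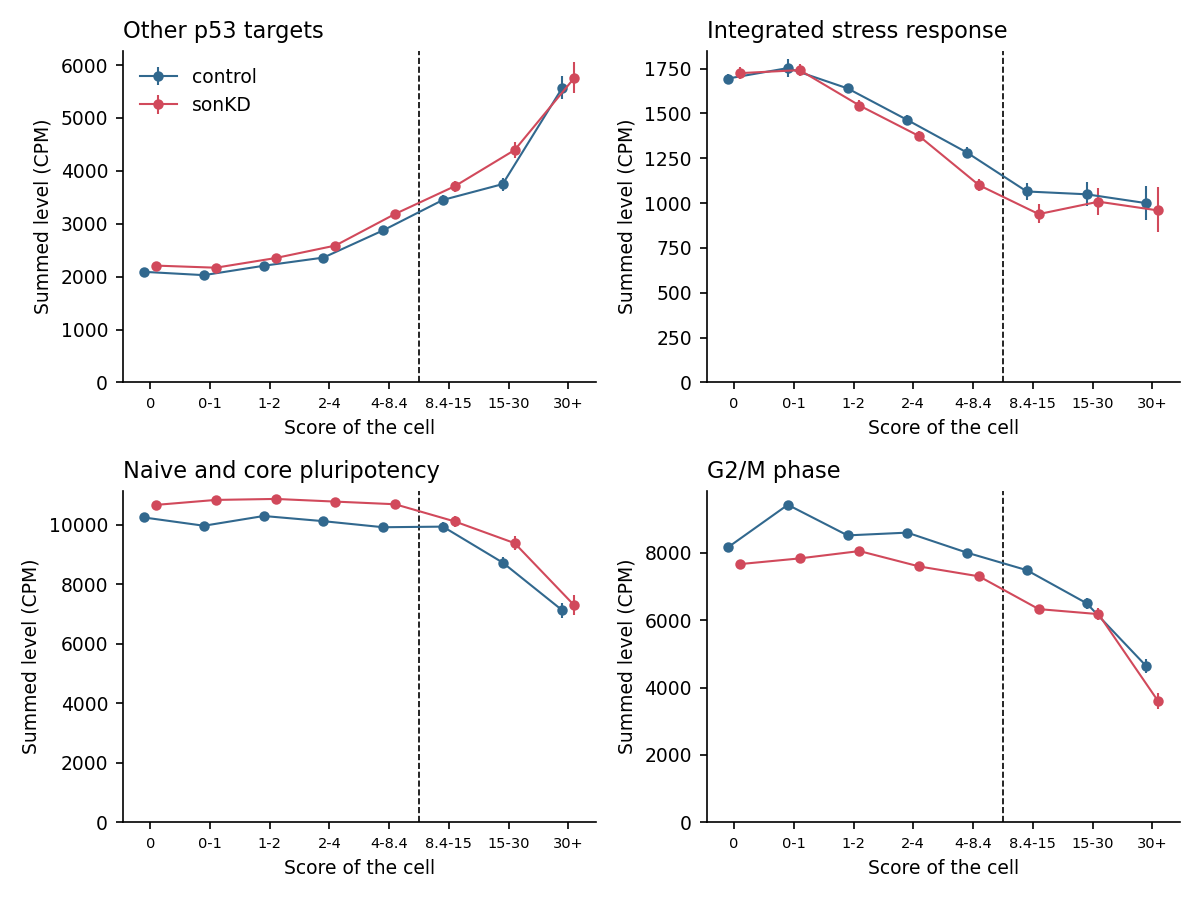
Summed level (CPM, with exact Poisson 95% intervals) of 4 gene lists by score of the cell in each library; the dashed line is the member threshold. The p53 targets climb to 5574 and 5759 CPM at scores of 30 or more, where the pluripotency and G2/M lists are at their lowest.

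At the highest scores several pluripotency genes were lower, as were many other genes. Scores of 30 or more, a boundary set after the data were seen, were held by 90 control and 43 sonKD members. These cells were shallow, with median depths of 4282.5 and 5192 UMIs, and had 6.85% and 7.17% mitochondrial UMIs. Since the score also set this split, the values are a description. Of 6244 genes of at least 20 CPM over members, 622 were higher and 1322 lower past 1.5-fold in both libraries than in the remaining members. Sox2 stood at 137 CPM against 370 CPM in the remaining members of control and at 125 against 336 CPM in sonKD. Nanog stood at 57.2 against 144 CPM in control and 24.3 against 132 CPM in sonKD, the latter from 6 UMIs. Klf4, a naive pluripotency factor, stood at 34.3 against 133 CPM in control and 40.5 against 126 CPM in sonKD.

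Pou5f1 did not follow them. It stood at 1034 CPM in control members of these scores and 1031 CPM in the remaining members, and at 761 against 836 CPM in sonKD. Tdgf1 was lower by -1.46 and -1.94 on the log2 scale, and Zfp42, which encodes Rex1, by -1.07 and -0.90. Esrrb had log2 ratios of -0.63 and -0.10, past the fold in control only, and Trp53 had -0.56 and -0.82. The summed S phase list was 3899 CPM in control and 2461 CPM in sonKD at these scores, against 6271 and 5852 CPM at a score of 0. Among the 10 genes with the highest ratio in these cells, named after their values were seen, were Grm8, a glutamate receptor, at 201 against 8.07 CPM in control and 142 against 14.4 CPM in sonKD, and Fosl1, a subunit of the AP-1 factor, at 82.4 against 13.3 CPM and 89.0 against 11.4 CPM. These genes reached 20 CPM over all members only through the cells of high score. Leaving these 133 cells out left 332 higher and 79 lower genes among members, with 14 of 22 p53 targets and 7 of 12 stress genes still called.

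A high score occurred among barcodes over the mitochondrial limit as well, which were outside the choice of members. Of 625 such control barcodes 108 reached the threshold (17.3%, 14.4 to 20.5), and of 1056 sonKD barcodes 168 did (15.9%, 13.8 to 18.3). In these the other p53 targets stood at 3588 CPM against 1737 CPM in the remaining barcodes over the limit in control, and at 4020 against 1974 CPM in sonKD. Their median depth was 2973 and 3140.5 UMIs over all barcodes over the limit.

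The overlap with other ways of ranking the cells was read as a share of each set, all of them 10% of cells. Of the 771 members, 373 were also among the 771 cells with the highest joint level of Ano3 and Anks1b, which is 48.4% of either set (44.8 to 52.0), against 5.74% of the other cells. The share was 46.6% of control and 51.9% of sonKD members. Ranked by genes spanning at least 100 kb, 26.3% of members were in the top set, and 8.19% of other cells. Ranked by Malat1 it was 16.5% and 9.28%. Ranked by Gli2, a transcription factor of the hedgehog pathway in which Rab23 acts, it was 8.30% and 10.2%, so members were not over-represented there. Thinning to 2500 UMIs lowered the Ano3 and Anks1b share to 40.0%.

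Among members, sonKD over control passed 1.5-fold upward for 107 genes (1.78%) and downward for 236 (3.94%), with a median log2 ratio of -0.11. Among other cells the counts were 66 (1.1%) and 70 (1.17%), with the same median of -0.11. The ratios of the fewer members scattered more, with their 5th and 95th percentiles at -0.55 and 0.40, against -0.38 and 0.27 among other cells. The other p53 targets had a median of 0.00 among members and 0.02 among other cells. Within that list 1 gene passed upward among members, Ddit4l (95.5 CPM in control members, 146 CPM in sonKD members), and 1 passed downward, Sesn1 (31.0 and 20.3 CPM). Cdkn1a stood at 118 and 120 CPM. Ccng1 had a log2 ratio of 0.03 (-0.13 to 0.18) and Perp one of 0.51 (0.32 to 0.71). Among other cells the log2 ratio was 0.51 for Perp (0.39 to 0.63) and 0.39 for Ddit4l (0.21 to 0.58). For Sesn1 it was -0.23 there (-0.39 to -0.07) and for Ccng1 0.12 (0.05 to 0.20). Perp, Ddit4l and Sesn1 thus had the same sign in members and in other cells. Ddit4l and Sesn1 passed the fold among members only, and the differences in size were not tested.

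The score genes differed little between the libraries among members, apart from 3 whose intervals lay below 0. Mdm2 stood at 916 CPM in control members and 781 CPM in sonKD members (log2 -0.23, -0.32 to -0.15), Apaf1 at 138 and 115 CPM (-0.26, -0.49 to -0.04), and Rbl2 at 106 and 69.0 CPM (-0.63, -0.91 to -0.35). Only Rbl2 passed 1.5-fold. Since the score chose members in both libraries together, these values are a description. Son itself had a log2 ratio of -0.50 among members (-0.70 to -0.30) and -0.69 among other cells.

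The genes named here among the highest and lowest in members had the same sign among other cells. Among the 5 highest were Hist1h2ap, Rpl29, Rps27 and Hist1h2ae, histone and ribosomal protein genes with close copies elsewhere in the genome, so their counts are uncertain. Hist1h2ap stood at 22.8 CPM in control members and 137 CPM in sonKD members, and at 28.7 and 149 CPM in other cells. The 5 lowest were Pck2, Tubb2a, Dapk3, Dhrs1 and Fam173a, with log2 ratios of -1.54 to -1.35 among members and -0.97 to -0.54 among other cells. Neat1 stood at 161 CPM in control members and 388 CPM in sonKD members, and at 80.7 and 211 CPM in other cells. Its log2 ratio was 1.26 among members and 1.39 among other cells, and the difference between these was not tested.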

How the data were processed

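The authors deposited raw UMI counts per gene and barcode for each library, made with Cell Ranger 7.1.0 per the file headers, on mm10 per the submitters' processing notes. The annotation used and how intronic reads were handled is not given in the sources used here. All barcodes were listed, with 71046373 UMIs in control and 60352438 in sonKD, and cells were kept by the limits in the report. Groups came from the sample titles, with 1 sample each, so no test between groups was possible. Nothing identifies separate cultures, and cells and UMIs are not replicates.

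Counts were summed over members and over other cells of each library and scaled to CPM, and ratios are without a pseudocount. Intervals are 95% and exact: Poisson for sums, binomial (Clopper-Pearson) for shares, conditional binomial for ratios. Genes needed 20 CPM over all kept cells, as the mean of both libraries, and score genes were left out. A call needed 1.5-fold in both libraries. Named genes were the 8 score genes, the 10 highest and 10 lowest called genes, the 2 farthest of each list among genes past the filter, 10 genes named whatever their change (Son, Trp53, Mdm4, Cdkn1a, Ccng1, Pou5f1, Sox2, Nanog, Malat1, Neat1), and for sonKD over control the 5 highest and 5 lowest among members. Of these, 1 gene is not reported here. Other genes are named as members of a list or after their values were seen. The members and the 19 gene lists were chosen with earlier results of these data known. Doublets were not removed, and leaving out the deepest 5% of cells is an alternative. Gene positions and spans are from GENCODE M21 on GRCm38. Promoters are RefSeq windows on GRCm38.p6 and leave out chromosome 18. Python 3.11.15, numpy 2.4.6, scipy 1.17.1, pandas 2.3.3 and matplotlib 3.10.9 were used. The calculations were tested on simulated data. Alternatives changed the member share, the score, the cells kept, the weighting of other cells, the scaling, the gene filter and the fold.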

Additional observations from a re-analysis of the deposited data

Results flagged for a closer look

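Mdm2 was picked out because it differed between the libraries in opposite directions in members and in other cells. Among members the log2 ratio of sonKD over control was -0.23 (-0.32 to -0.15), from 916 CPM to 781 CPM. Among other cells it was 0.10 (0.02 to 0.18), from 72.8 CPM to 78.1 CPM. The difference between the ratios was not tested, as there are no replicate libraries. Mdm2 was also part of the score that chose the members, and its level in other cells was close to that of free RNA, at 75.3 and 73.6 CPM.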

How the results depend on the processing

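No paired analysis was possible because each group held 1 sample. List medians of the log2 ratio were taken in 26 settings, which leave out the one without a gene filter and the 2-fold limit. Over these the median of the p53 targets stayed between 0.70 and 1.31 in control and between 0.77 and 1.31 in sonKD. That of the stress response stayed between -0.81 and -0.44 in control and between -1.05 and -0.51 in sonKD. The counts of higher and lower genes, 456 and 161, depended on the settings. Taking the top 5% gave 552 lower genes, with sonKD ratios of Krt18 at -0.25 and Krt8 at -1.46. Taking the top 20% gave 270 higher and 25 lower. After thinning, 70 genes were lower, the control member share was 9.34%, and the overlap with Ano3 and Anks1b cells was 40.0%. Cells of at least 5000 UMIs gave 54 lower genes. Cells of at most 5% mitochondrial UMIs gave 150 higher and 13 lower, with 10 of 19 p53 targets higher and 3 of 12 stress genes lower. Weighting other cells to the members' depth gave 104 lower genes. Weighting to their long-gene share gave 272 higher, with Pou5f1 at 0.00856 in control and Malat1 at -0.074 and -0.10. The mean of CPM per cell gave 316 lower. A filter of 5 CPM gave 957 and 299, a filter of 50 CPM 173 and 91, no filter 2794 and 542, and a 2-fold limit 159 and 5. Scoring without Mdm2 turned sonKD Krt18 to -0.51 and Krt8 to -0.33. Leaving out mitochondrial and ribosomal protein genes raised the genes higher in sonKD members from 107 to 185. Added after the data were seen, weighting to the mitochondrial share gave 259 and 51, with Son at -0.00939 and Pou5f1 at 0.011 in control 12 of 22 p53 targets higher and 4 of 12 stress genes lower, and leaving out scores of 30 or more gave 79 lower. A filter on other cells alone, also added later, gave 417 and 164. The cause of these shifts was not tested. Of single-gene values, 2078 stayed within their interval and 601 moved beyond it. A further 9 changed sign although their interval had excluded 0, and those 9 are the single-gene values given above. Sign changes of values whose interval held 0 were not counted apart. Depth limits single genes most, and genes such as Pck2 rest on few UMIs.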
